A study of Homo sapiens with 7 samples.

Results

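Broad Pol II domains are the peaks of the Pol II list on chromosomes 1 to 22 that were selected on their own width, 1500 bp or more, which gave 621 of the 19336 Pol II peaks there (3.21%). The other 18715 Pol II peaks on these chromosomes are called narrower peaks below. The study mapped its targets by ChIP-seq, in which DNA bound by a protein is precipitated with an antibody and sequenced. The cells were BJAB, an established line of human B cells with its origin in a Burkitt's lymphoma. The cells carry no treatment that the labels name, and the 5 lists used come from antibodies to Pol II (8WG16), SPT5, TRIM28, OGA and O-GlcNAc (RL2). Each target had 1 library and 1 peak list, so no comparison has a replicate check, no p-value is given, and each interval covers counting error only. Peaks are not replicates of a condition, and how many reads went into each list is unknown. Positions are those of the deposited lists, in hg19, and the gene table used here is of another build, so no domain was matched to a gene.

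RNA polymerase II (Pol II) starts at promoters, pauses a short way downstream and is then released to travel through the gene. A Pol II peak in ChIP-seq is usually a narrow mark of the pause, and a wide one covers a stretch where polymerase is dense over more than the pause site. SPT5 is a subunit of DSIF, a complex that helps to hold the paused polymerase and then travels with it during elongation. TRIM28 (TIF1b, KAP1) is a co-repressor recruited to DNA by zinc finger proteins with a KRAB domain, and it has also been linked to pausing. O-GlcNAc is a single sugar attached to serine or threonine residues of proteins inside the cell, and OGA (O-GlcNAcase) is the enzyme that takes it off.

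Most broad domains were only a little wider than the threshold. Their widths ran from 1501 to 13170 bp, with a median of 1859 bp and quartiles of 1631 and 2259 bp, against a median of 490 bp for narrower peaks. The domains covered 1.33 Mb, or 11.3% of all bases in Pol II peaks of these chromosomes. They were also high: the authors' fold enrichment over their background had a median of 7.13 in domains (range 2.13 to 22.3) and 4.81 in narrower peaks. The height and the width come from the same list, so this difference is only a description. Of the domains, 348 (56.0%) fell in the highest 3 of the 10 deciles of Pol II fold enrichment and 33 (5.31%) in the lowest 3, but only 4 were among the 100 highest peaks. By chromosome the share of Pol II peaks that were broad ran from 2.34% on chromosome 10 (17 of 727, 95% Wilson interval 1.47% to 3.71%) to 4.49% on chromosome 6 (45 of 1003, 3.37% to 5.95%).

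The threshold of 1500 bp cut through a continuous range. The 123 domains just inside it, under 1600 bp, had a median Pol II fold enrichment of 7.75, and 83.7% of them overlapped TRIM28, 20.3% OGA and 54.5% O-GlcNAc. The 168 peaks just outside it, of 1400 bp or more, had a median Pol II fold enrichment of 6.96, and 85.7% overlapped TRIM28, 16.7% OGA and 48.8% O-GlcNAc. All peaks of both groups overlapped SPT5.

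SPT5 lay at every broad domain. All 621 domains overlapped an SPT5 peak by at least 1 bp (100%, Wilson interval 99.4% to 100%), against 17841 of 18715 narrower peaks (95.3%, 95% to 95.6%), where the share over all Pol II peaks was 95.5%. The 0 domains without SPT5 allow a share without it of up to 0.615% by the Wilson interval, or 0.483% by the simpler limit of 3 counts in 621, and no odds ratio can be formed from them. This was not particular to the threshold, since all 1629 Pol II peaks of at least 1000 but under 1500 bp carried SPT5 too. Within 250 bp of the Pol II summit, SPT5 lay at all 621 domains and at 17887 narrower peaks (95.6%, 95.3% to 95.9%, and 95.7% over all Pol II peaks).

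SPT5 was itself broad there. SPT5 peaks covered 99.0% of the bases of the domains and 94.6% of the bases of narrower peaks, and 501 domains (80.7%, 77.4% to 83.6%) lay wholly under SPT5, against 70.0% of narrower peaks (69.4% to 70.7%). The widest SPT5 peak at each domain had a median width of 2777 bp (95% interval of the median 2654 to 2946 bp), against 935 bp at narrower peaks (924 to 945 bp). SPT5 passed the domain by a median of 282 bp at the end nearer the Pol II summit and of 283 bp at the far end. It passed the far end by more at 292 domains and the summit end by more at 329. A single SPT5 peak was present at 600 domains, and 206 of the 621 SPT5 peaks at domains (33.2%) also reached another Pol II peak. SPT5 peaks of 1500 bp or more lay at 607 domains (97.7%), but an SPT5 peak that spans a whole domain has that width by the choice of domains. Only 582 of the 4391 SPT5 peaks of that width (13.3%) lay at a broad Pol II domain. The counts of SPT5 peaks of this width and of those reaching another Pol II peak have no share at narrower peaks beside them.

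The SPT5 peaks at the domains were also high within their list. Their fold enrichment had a median of 9.82 (interval 9.45 to 10.2, lowest 3.14, highest 23.7), against 7.36 at narrower peaks (7.29 to 7.43), while the median of the whole SPT5 list was 3.30. In the highest 3 deciles of Pol II height, the medians were 11.4 (11.1 to 12) at 348 domains and 10.5 (10.4 to 10.6) at narrower peaks. Most SPT5 summits in domains lay close to the Pol II summit. Within 100 bp of it were 428 of the 589 SPT5 summits inside domains (72.7%, 68.9% to 76.1%) and 85.9% of those inside narrower peaks (85.3% to 86.5%). Only summits inside the Pol II peak were counted, and narrower peaks, with a median width of 490 bp, leave little room farther away. The width rule thus partly sets the difference between the groups. No SPT5 summit lay inside 53 of the 621 domains and 4175 of the 18715 narrower peaks, so this lack was not particular to domains. Per kb of Pol II peak there were 0.444 SPT5 summits in domains and 1.40 in narrower peaks.

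**Figure D1:**
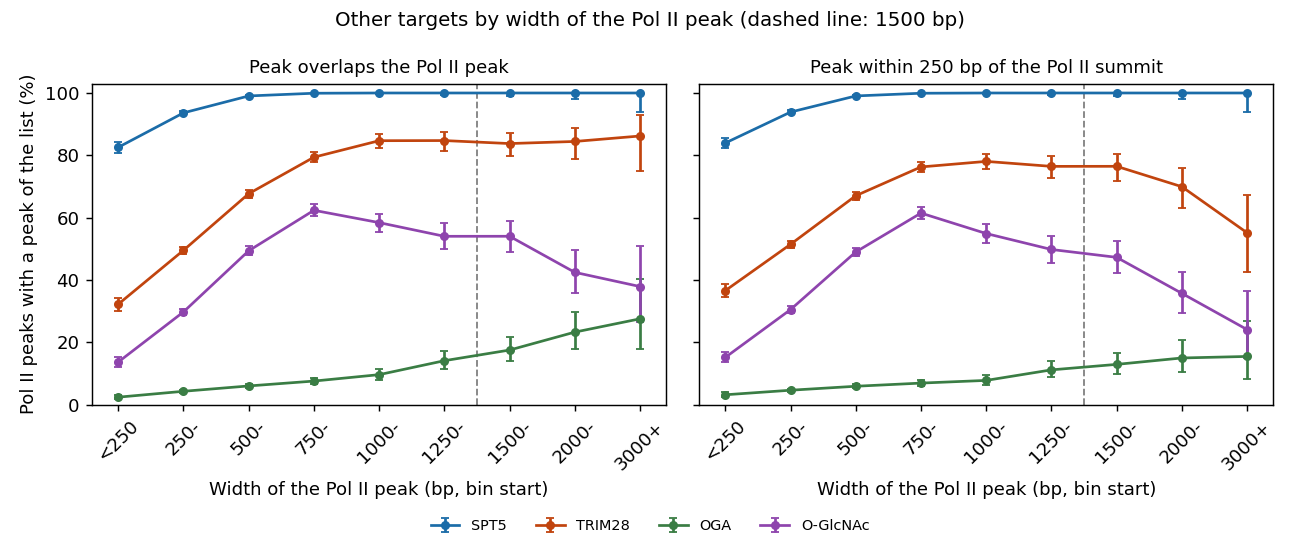
Share of Pol II peaks (y axis, %) that overlap a peak of each other list (left) or have one within 250 bp of the Pol II summit (right), over bins of Pol II peak width in bp (x axis); points are shares of the peaks in a bin and bars are 95% Wilson intervals, and the dashed line marks 1500 bp. In the left panel TRIM28 levels off from 1000 bp, OGA goes on upward to 27.6%, and O-GlcNAc is highest at 62.4% in the bin that starts at 750 bp and falls to 37.9% in domains of 3000 bp or more.

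TRIM28 lay at most broad domains and often at several places in one domain. It overlapped 523 of 621 domains (84.2%, 81.1% to 86.9%) and 11166 of 18715 narrower peaks (59.7%, 59.0% to 60.4%), where the share over all Pol II peaks was 60.5%. To compare peaks of like Pol II height, the groups were set against each other within the 10 deciles of Pol II fold enrichment, and the Mantel-Haenszel odds ratio of TRIM28 at domains against narrower peaks was 2.55 (95% interval 2.03 to 3.19). Set only against Pol II peaks of at least 750 but under 1500 bp it was 1.22 (0.961 to 1.54), so the interval then held 1. The plot by width shows the same levelling: 84.7% of Pol II peaks of at least 1000 but under 1500 bp, 83.8% of domains under 2000 bp and 86.2% of domains of 3000 bp or more overlapped TRIM28.

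A wide peak has more bases that can be overlapped, and at the Pol II summit itself the difference in TRIM28 over all deciles was small. A TRIM28 peak reached within 250 bp of the Pol II summit at 450 domains (72.5%, 68.8% to 75.8%) and at 11170 narrower peaks (59.7%, 59.0% to 60.4%, and 60.1% over all Pol II peaks), with an odds ratio of 1.26 (1.05 to 1.52) at like Pol II height. The direction differed with Pol II height: the share was lower at domains in each of deciles 1 to 5 and higher in each of deciles 6 to 10. In the lowest 3 deciles it was 33.3% of 33 domains (19.8% to 50.4%) against 47.2% of narrower peaks. In the highest 3 it was 82.2% of 348 domains (77.8% to 85.8%) against 73.7%. The odds ratio over all deciles also turned with the choice of peaks: it was 0.954 (0.727 to 1.25) for domains of 2000 bp or more, and 0.783 (0.643 to 0.952) for all domains against Pol II peaks of at least 750 but under 1500 bp. Among the domains, a TRIM28 peak lay near the Pol II summit at 66.5% of the 251 of 2000 bp or more and at 76.5% of the 370 under 2000 bp (odds ratio at like height 0.613, 0.420 to 0.896).

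The TRIM28 summits were spread over the length of the domains. Of the 621 domains, 100 held no TRIM28 summit, 234 held 1, 194 held 2, 80 held 3 and 13 held 4 or 5. Thus 287 domains (46.2%) held 2 or more, against 663 narrower peaks (3.54%), and per kb of Pol II peak there were 0.692 TRIM28 summits in domains (exact Poisson interval 0.648 to 0.738) and 1.02 in narrower peaks (1.00 to 1.04). In the domains with 2 or more, neighbouring TRIM28 summits lay a median of 771 bp apart (712 to 818 bp), and at 171 of the 287 (59.6%, 53.8% to 65.1%) they lay on both sides of the Pol II summit. Neither value has one at narrower peaks beside it, so neither is shown to be particular to domains. Only 170 of the 917 TRIM28 summits inside domains (18.5%, 16.2% to 21.2%) were within 100 bp of the Pol II summit, against 51.0% (50.1% to 52.0%) of those inside narrower peaks. For SPT5 summits inside domains the share was 72.7%. Narrower peaks leave less room for a summit farther away, so the width rule partly sets the difference between domains and narrower peaks. The 2 targets differ in number, with a mean of 1.48 TRIM28 and 0.948 SPT5 summits per domain, and several summits in 1 domain cannot all lie that close.

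**Figure D2:**
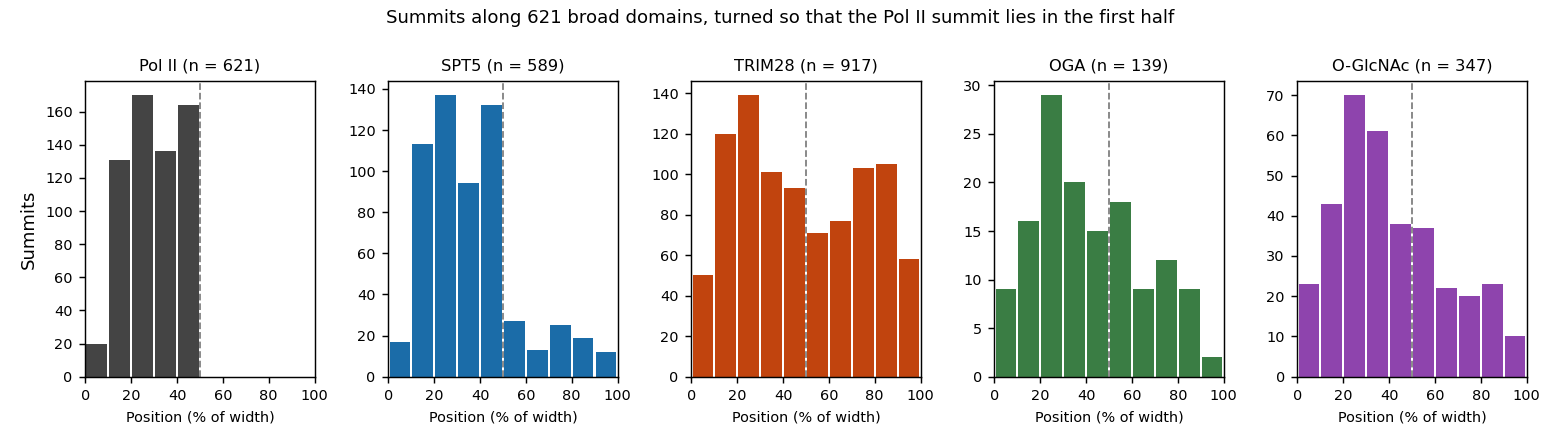
Number of summits of each list (y axis) along the 621 broad domains (x axis, % of the domain's width), with each domain turned so that its Pol II summit lies left of the middle; bars are counts in bins of 10% of the width and the dashed line is the middle. SPT5 summits follow the Pol II summits with 83.7% left of the middle, TRIM28 summits are nearly even with 54.9%, and OGA and O-GlcNAc lie between at 64.0% and 67.7%.

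With each domain turned so that its Pol II summit fell left of the middle, the targets differed in how far they kept to that side. It held 493 of 589 SPT5 summits (83.7%, 80.5% to 86.5%) and 503 of 917 TRIM28 summits (54.9%, 51.6% to 58.0%). The same side held 89 of 139 OGA summits (64.0%, 55.8% to 71.5%) and 235 of 347 O-GlcNAc summits (67.7%, 62.6% to 72.4%). Narrower peaks under the same turn had 76.9% of SPT5 summits on that side, 54.3% of TRIM28 summits, and 51.4% and 50.2% of OGA and O-GlcNAc summits, so the TRIM28 share was about the same in both groups. The turn itself places any target that sits near the Pol II summit on that side, and the strand of transcription is not known from peaks. Of the TRIM28 summits, 366 (39.9%, 36.8% to 43.1%) lay more than 500 bp from the Pol II summit toward the far end, against 79 of the O-GlcNAc summits (22.8%, 18.7% to 27.5%).

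TRIM28 peaks at domains were low within their own list. The highest TRIM28 peak at each domain had a median fold enrichment of 3.14 (3.07 to 3.20, lowest 1.79, highest 10.9), against 3.03 at narrower peaks (3.01 to 3.04) and 3.49 over the whole TRIM28 list. Taking the TRIM28 peak nearest the Pol II summit in place of the highest one turned the difference between domains and narrower peaks, from 0.112 to -0.118.

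OGA was present at a minority of the domains, but at a larger share of them than of narrower peaks. Its list was the shortest, with 2503 peaks on these chromosomes, while the SPT5 list had 54885, the TRIM28 list 43998 and the O-GlcNAc list 8988, so shares of domains are not compared between targets. With the other lists reduced to the 2503 peaks with the largest −log10 p, 43.2% of domains overlapped SPT5, 1.93% TRIM28 and 11.1% O-GlcNAc. These shares have no narrower-peak share beside them and do not rank the targets. Against narrower peaks at like Pol II height, the odds ratios with these short lists were 2.71 (1.47 to 4.98) for TRIM28 and 0.567 (0.439 to 0.732) for O-GlcNAc. OGA peaks overlapped 126 of 621 domains (20.3%, 17.3% to 23.6%) and 1055 narrower peaks (5.64%, 5.32% to 5.98%), where the share over all Pol II peaks was 6.11%. At like Pol II height the odds ratio was 3.65 (2.96 to 4.51), and against Pol II peaks of at least 750 but under 1500 bp it was 2.58 (2.06 to 3.23). Within 250 bp of the Pol II summit, OGA lay at 86 domains (13.8%, 11.4% to 16.8%) and at 1039 narrower peaks (5.55%, 5.23% to 5.89%, and 5.82% over all Pol II peaks), with an odds ratio of 2.41 (1.90 to 3.07). Per kb of Pol II peak the groups differed little. There were 0.105 OGA summits per kb in domains (exact Poisson interval 0.0881 to 0.124) and 0.0883 in narrower peaks (0.0827 to 0.0942), and the intervals overlapped. The share with an OGA overlap went up with width, from 17.6% (14.0% to 21.8%) at widths under 2000 bp to 23.3% (17.9% to 29.8%) at 2000 bp or more but under 3000 bp and 27.6% (17.8% to 40.2%) at 3000 bp or more, and the odds ratio of domains of 2000 bp or more against those under 2000 bp at like height was 1.54 (1.04 to 2.30). Within 250 bp of the Pol II summit, where width does not enter, the shares were 15.1% and 13.0%. The odds ratio there was 1.21 (0.759 to 1.93), and its interval held 1.

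OGA at the domains went with TRIM28 overlap, and its summits lay nearer to TRIM28 summits than to Pol II summits. Of the 126 domains with OGA, 121 had TRIM28 (96.0%, 91.0% to 98.3%), against 402 of the 495 without OGA (81.2%, 77.5% to 84.4%), and the odds ratio at like Pol II height was 4.90 (1.91 to 12.6) among domains and 11.2 (8.63 to 14.6) among narrower peaks. The 139 OGA summits inside domains lay a median of 71 bp from the nearest TRIM28 summit (55 to 94 bp), 277 bp from the nearest Pol II summit (231 to 347 bp) and 326 bp from the nearest SPT5 summit (238 to 428 bp). In narrower peaks these medians were 49, 108 and 116 bp. Only OGA summits inside the Pol II peak were counted, so the width rule limits their distance to the Pol II summit in narrower peaks. TRIM28 summits were also the most numerous in domains, which shortens the distance to the nearest one. The highest OGA peak at each domain had a median fold enrichment of 2.95 (2.78 to 3.08, lowest 1.77, highest 15.8), against 3.14 (3.08 to 3.22) at narrower peaks.

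**Figure D3:**
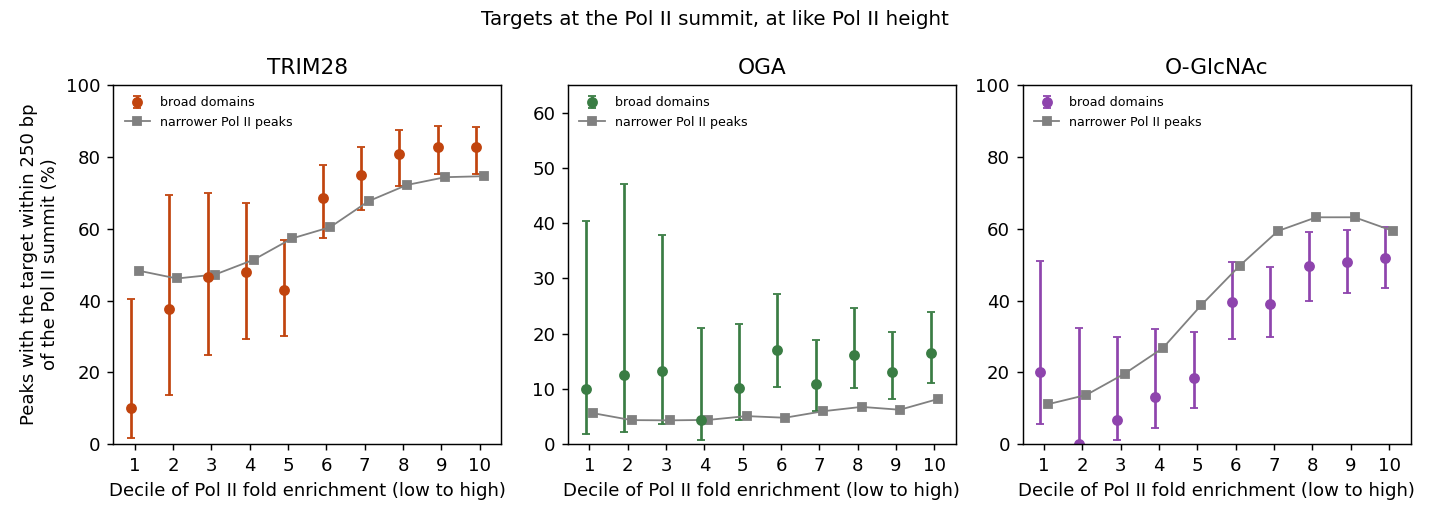
Share of Pol II peaks (y axis, %) with a TRIM28, OGA or O-GlcNAc peak within 250 bp of the Pol II summit in each decile of Pol II fold enrichment (x axis, low to high); coloured points are broad domains with 95% Wilson intervals and grey squares are narrower peaks. Deciles 1 to 3 hold 33 domains in all; O-GlcNAc is lower at domains in each of deciles 2 to 10, and OGA is higher in each decile except decile 4. TRIM28 is lower at domains in each of deciles 1 to 5 and higher in each of deciles 6 to 10.

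O-GlcNAc overlap went the other way in the odds ratio once Pol II height was held. O-GlcNAc peaks overlapped 304 of 621 domains (49.0%, 45% to 52.9%) and 7503 narrower peaks (40.1%, 39.4% to 40.8%), where the share over all Pol II peaks was 40.4%. At like Pol II height, however, the odds ratio was 0.771 (0.652 to 0.911), and against Pol II peaks of at least 750 but under 1500 bp it was 0.609 (0.511 to 0.725). Where 50% of the shorter peak had to overlap it was 0.924 (0.782 to 1.09), and the call was lost. By decile of Pol II height, the overlap share was lower at domains in deciles 3 to 9. It was about equal in decile 10 (60.6% of 127 domains against 60.4%) and higher at domains in deciles 1 and 2, which held only 10 and 8 domains. The order depends on the strata, since without them the odds ratio was 1.43 (1.22 to 1.68). At the Pol II summit, O-GlcNAc lay within 250 bp at 258 domains (41.5%, 37.7% to 45.5%) and at 7487 narrower peaks (40.0%, 39.3% to 40.7%, and 40.1% over all Pol II peaks), with an odds ratio of 0.574 (0.484 to 0.680) at like height and 1.07 (0.906 to 1.25) without strata. In the middle 4 deciles of Pol II height the share was 32.5% at domains (26.9% to 38.7%) and 43.4% at narrower peaks (42.3% to 44.6%), and in the highest 3 deciles it was 50.9% (45.6% to 56.1%) and 61.9% (60.6% to 63.2%).

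The O-GlcNAc share also went down with width among the domains. It was 54.1% (49.0% to 59.1%) at widths under 2000 bp, 42.5% (35.7% to 49.5%) at 2000 bp or more but under 3000 bp and 37.9% (26.6% to 50.8%) at 3000 bp or more. The odds ratio of domains of 2000 bp or more against those under 2000 bp at like Pol II height was 0.624 (0.444 to 0.876) for any overlap. The highest O-GlcNAc peaks at domains were low, with a median fold enrichment of 3.41 (3.21 to 3.61, lowest 1.48, highest 9.62), against 4.11 at narrower peaks (4.07 to 4.17, highest 18.5). In the highest 3 deciles of Pol II height the medians were 3.44 (3.23 to 3.73) at domains and 3.89 (3.83 to 3.98) at narrower peaks. O-GlcNAc summits kept a distance from the Pol II summit, with only 22 of 347 inside domains (6.34%, 4.22% to 9.41%) within 100 bp of it but 188 (54.2%, 48.9% to 59.3%) within 250 bp. Inside narrower peaks a minority also lay within 100 bp (28.0%, 26.9% to 29.2%), and 88.8% (88.0% to 89.6%) lay within 250 bp. Narrower peaks leave less room for a summit farther away, so the width rule partly sets these differences. Per kb of Pol II peak there were 0.262 O-GlcNAc summits in domains (0.235 to 0.291) and 0.557 in narrower peaks (0.543 to 0.571).

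Most domains carried SPT5 with TRIM28, either alone or with O-GlcNAc. SPT5 and TRIM28 with O-GlcNAc and no OGA were present at 204 domains (32.9%) and at 25.1% of narrower peaks, but the odds ratio at like Pol II height was 0.832 (0.698 to 0.992). SPT5 and TRIM28 alone were present at 198 domains (31.9%) and at 28.3% of narrower peaks, with an odds ratio of 1.36 (1.14 to 1.62). All 4 other targets were present at 74 domains (11.9%, 9.60% to 14.7%) and at 475 narrower peaks (2.54%, 2.32% to 2.77%), with an odds ratio of 3.4 (2.61 to 4.42) at like Pol II height. SPT5, TRIM28 and OGA without O-GlcNAc were present at 47 domains (7.57%) and at 511 narrower peaks (2.73%), with an odds ratio of 3.50 (2.55 to 4.82). SPT5 was the only other target at 68 domains (11.0%) and at 4532 narrower peaks (24.2%), with an odds ratio of 0.691 (0.530 to 0.900). SPT5 with O-GlcNAc and neither TRIM28 nor OGA was present at 25 domains (4.03%, 2.74% to 5.88%) and at 2257 narrower peaks (12.1%, 11.6% to 12.5%), with an odds ratio of 0.262 (0.175 to 0.392).

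**Figure D4:**
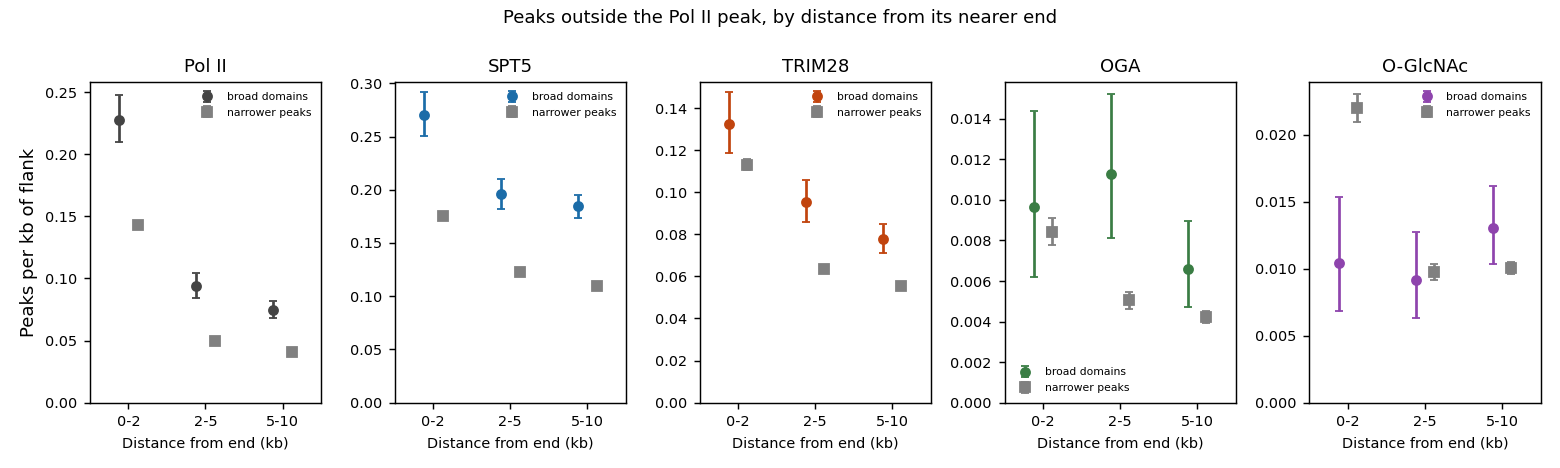
Peaks of each list per kb of flank (y axis) at 0 to 2, 2 to 5 and 5 to 10 kb from the nearer end of the Pol II peak (x axis), outside that peak; coloured points are broad domains, grey squares are narrower peaks, and bars are exact Poisson intervals. Pol II, SPT5 and TRIM28 are denser beside domains in all 3 bands, whereas O-GlcNAc within 2 kb is sparser beside domains, at 0.0105 against 0.0220 peaks per kb. The bands start at the end of the Pol II peak, so at domains they generally lie farther from the Pol II summit.

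Domains had further Pol II, SPT5, TRIM28 and OGA peaks nearby more often than narrower peaks did. Other Pol II peaks lay within 10 kb of 434 domains (69.9%, 66.2% to 73.4%) and of 56.0% of narrower peaks (55.3% to 56.7%), a description from the list that chose the domains. Within 10 kb of either end, and outside the domain, 537 domains (86.5%, 83.6% to 88.9%) had at least 1 further SPT5 peak, against 68.3% of narrower peaks (67.6% to 68.9%, and 68.9% over all Pol II peaks), with an odds ratio of 3.90 (3.08 to 4.94) at like Pol II height. Further TRIM28 peaks lay there at 427 domains (68.8%, 65.0% to 72.3%) and at 60.9% of narrower peaks (60.2% to 61.6%, and 61.1% over all), with an odds ratio of 1.98 (1.66 to 2.36). OGA peaks lay there at 86 domains (13.8%) and at 9.0% of narrower peaks (9.16% over all), with an odds ratio of 2.47 (1.94 to 3.14). O-GlcNAc peaks lay there at 116 domains (18.7%) and at 20.4% of narrower peaks (20.4% over all), and the interval of the odds ratio, 1.12 (0.908 to 1.38), held 1.

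By distance, SPT5 and TRIM28 were denser beside domains in all 3 bands, and O-GlcNAc was sparser beside domains within 2 kb. A flanking peak was counted once for each Pol II peak that it lay near. The counts are therefore not independent, and their intervals can be too narrow. There were 0.271 SPT5 peaks per kb within 2 kb of domains (exact Poisson interval 0.250 to 0.292) and 0.176 of narrower peaks (0.173 to 0.179), against 0.196 and 0.123 at 2 to 5 kb and 0.184 and 0.110 at 5 to 10 kb. For TRIM28 they were 0.132 (0.119 to 0.148) and 0.113 (0.111 to 0.116) within 2 kb, 0.0955 and 0.0635 at 2 to 5 kb, and 0.0778 and 0.0554 at 5 to 10 kb. O-GlcNAc had 0.0105 peaks per kb within 2 kb of domains (0.00684 to 0.0153) and 0.0220 of narrower peaks (0.0210 to 0.0231), but 0.00913 (0.00632 to 0.0128) and 0.00976 (0.00919 to 0.0104) at 2 to 5 kb, and 0.0130 and 0.0101 at 5 to 10 kb. The bands start at the end of the Pol II peak. A target at a given distance from the Pol II summit can thus lie inside a domain but outside a narrower peak. Whether this gave the O-GlcNAc difference within 2 kb was not tested, and the densities were not taken at like Pol II height. OGA had 0.00966 (0.00619 to 0.0144) and 0.00843 (0.00778 to 0.00911) within 2 kb, where the intervals overlapped, 0.0113 and 0.00504 at 2 to 5 kb, and 0.00660 and 0.00422 at 5 to 10 kb. Flanking peaks were shared about evenly between the 2 sides of a domain: the side of the Pol II summit held 49.0% of flanking SPT5 peaks (47.0% to 50.9%), 51.5% of TRIM28 peaks (48.7% to 54.4%) and 50.6% of Pol II peaks (47.9% to 53.2%).

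Broad domains also lay nearer to other broad domains than narrower peaks did. The nearest other Pol II peak was a median of 1367 bp away (787 to 2817 bp), against 5923 bp for narrower peaks (5563 to 6296 bp), and it was within 2 kb at 325 domains (52.3%) and at 40.2% of narrower peaks. The nearest other broad domain was a median of 446 kb from a domain (353 to 591 kb), against 888 kb from a narrower peak (858 to 917 kb). A further broad domain lay within 100 kb of 205 domains (33.0%) and of 17.5% of narrower peaks. These gaps and counts rest on the same widths that chose the domains, and each pair of domains is counted from both ends. They are a description only.

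**Figure D5:**
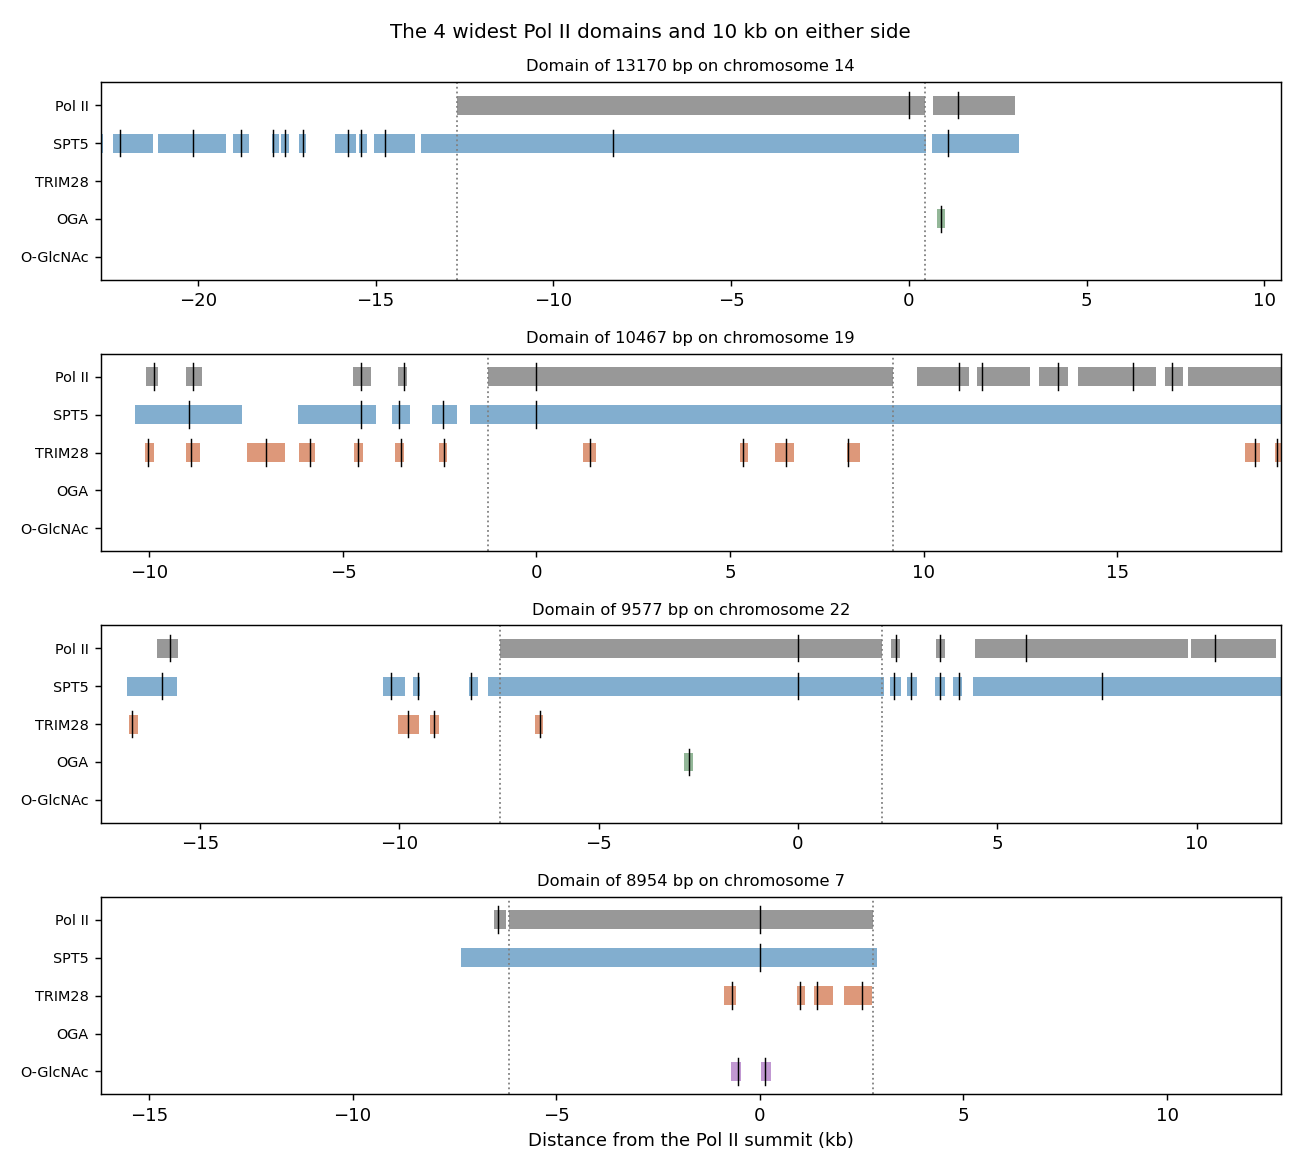
Peaks of the 5 lists (rows) in the 4 widest Pol II domains and 10 kb on either side, by distance in kb from the Pol II summit (x axis); bars are peaks to scale, black ticks are summits and dotted lines are the ends of the domain. SPT5 peaks span each of the 4 domains, TRIM28 peaks are short, with 4 in each of the domains on chromosomes 19 and 7, 1 in that on chromosome 22 and 0 in that on chromosome 14, and O-GlcNAc peaks lie only in the domain on chromosome 7.

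Each of the 8 widest domains lay under or almost under 1 SPT5 peak, and they differed in TRIM28, with 4 peaks at 3 of them, 1 at 3 and 0 at 2. The widest, chr14:106314764-106327933 (13170 bp, Pol II fold enrichment 6.10), lay under 1 SPT5 peak of 14207 bp (fold enrichment 13.8) and overlapped no TRIM28, OGA or O-GlcNAc peak. Its Pol II summit was at 96.6% of its length, 8331 bp from the SPT5 summit. The next, chr19:35818895-35829361 (10467 bp, 6.91), lay under an SPT5 peak of 23369 bp (18.5) and held 4 TRIM28 peaks with fold enrichments of 2.38 to 3.26, the nearest of them 1373 bp from the Pol II summit. It had 4 further broad domains within 100 kb and 10 Pol II peaks within 10 kb.

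A pair of the 8 widest lay close together on chromosome 22. The first, chr22:23222580-23232156 (9577 bp, 5.78), overlapped 1 TRIM28 peak (2.01) and 1 OGA peak (3.90) that lay 2738 bp from the Pol II summit. The second, chr22:23234504-23239834 (5331 bp, 5.46), lay under an SPT5 peak of 15348 bp (7.11) and had no TRIM28, OGA or O-GlcNAc peak. As background, the immunoglobulin heavy chain locus is on chromosome 14 and the lambda light chain locus is on chromosome 22. Whether these domains lie in them was not analysed here.

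The other 4 of the 8 widest differed in TRIM28 and O-GlcNAc. The domain chr7:5564023-5572976 (8954 bp, 7.60) held 4 TRIM28 peaks of 1.99 to 3.10 and 2 O-GlcNAc peaks of 2.27 and 3.65, of which the second lay 126 bp from the Pol II summit. The domain chr2:232527128-232532225 (5098 bp, 6.68) overlapped 4 TRIM28 peaks of 2.89 to 3.32 and 1 O-GlcNAc peak (2.09) at its edge, 4033 bp from the Pol II summit. The domains chr17:56405041-56410395 (5355 bp, 11.6) and chr8:144105202-144110343 (5142 bp, 6.98) each overlapped 1 TRIM28 peak and neither OGA nor O-GlcNAc. The SPT5 summit lay within 22 bp of the Pol II summit at each of these 4 domains. Of the 8 widest domains, 6 thus had TRIM28, 1 had OGA and 2 had O-GlcNAc.

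The domains that carried all 4 other targets were led, by OGA fold enrichment, by chr20:44562469-44564252 (1784 bp, Pol II 10.8). There OGA reached 15.8 in a peak of 1292 bp, beside SPT5 at 12.9, O-GlcNAc at 5.88 and TRIM28 at 2.00, each within its own list. The OGA and O-GlcNAc summits lay 282 and 265 bp on one side of the Pol II summit and the TRIM28 summit 116 bp on the other side. At chr5:172482925-172484887 (1963 bp, Pol II 7.27) the OGA peak (11.0) lay 746 bp from the Pol II summit, with an O-GlcNAc peak (7.25) at 736 bp and a TRIM28 peak (3.88) at 504 bp on the same side.

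The next of them repeated this placing of OGA away from the Pol II summit. At chr1:40504822-40506741 (1920 bp) the higher of 2 OGA peaks (7.80) lay 347 bp from the Pol II summit, beside TRIM28 at 374 bp and O-GlcNAc at 416 bp. At chr13:50017896-50020207 (2312 bp) 2 OGA peaks of 7.64 and 3.89 lay on either side of the Pol II summit, with 3 TRIM28 peaks, of which 1 summit was 846 bp and the lower OGA summit 895 bp along the same side. At chr4:103747701-103749790 (2090 bp) the OGA peak (6.34) lay 480 bp, TRIM28 338 bp and O-GlcNAc 642 bp from the Pol II summit, all on 1 side. In these 5 domains the 7 OGA summits thus lay 282 to 895 bp from the Pol II summit.

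TRIM28 summits were most numerous, at 5 each, in 3 domains. At chr11:67116569-67121372 (4804 bp) they lay at 389 bp on one side of the Pol II summit and at 1359, 2206, 2875 and 3328 bp on the other, and the highest of them (4.14) was the one at 389 bp, where OGA (5.62, 381 bp) and O-GlcNAc (4.25, 179 bp) also had their summits. At chr6:32936879-32940853 (3975 bp, Pol II 12.7) all 5 lay on 1 side, 185 to 2887 bp from the Pol II summit, with no OGA or O-GlcNAc peak in the domain. At chr1:2477266-2480690 (3425 bp, Pol II 13.7) the highest TRIM28 peak (5.36) lay 2 bp from the Pol II summit and the farthest at 2489 bp.

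The most broad domains within 100 kb of a domain were 5 others, and this number was reached on chromosomes 11 and 12. On chromosome 11, 6 broad domains lay within 100 kb of one another, in 2 runs of 3, chr11:65185424-65196378 and chr11:65264523-65275291, so that each had 5 others in that range. The first run lay under 1 SPT5 peak of 12775 bp (fold enrichment 12.5). Its middle domain, chr11:65188557-65193270 (4714 bp, Pol II 14.1), held 3 TRIM28 and 2 OGA peaks and no O-GlcNAc peak. In the second run, chr11:65270435-65275291 (4857 bp, Pol II 4.77) held 1 TRIM28 peak (3.39) and 1 OGA peak (2.23). Over the 6 domains, 5 had TRIM28, 4 had OGA and 1 had O-GlcNAc, with a fold enrichment of 1.97. On chromosome 12, a group of 6 domains at chr12:25148775-25263833 had 4 members with 5 others within 100 kb and 2 members with 4. These were 1557 to 2789 bp wide with Pol II fold enrichments of 3.74 to 6.38 and 5 to 22 further Pol II peaks within 10 kb. Each of the 6 overlapped SPT5, with fold enrichments of 5.31 to 14.5, and 0 of the 6 overlapped TRIM28, OGA or O-GlcNAc.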

How the data were processed

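ChIP-seq libraries from BJAB cells were analysed as 5 deposited peak lists, with 1 library per target, grouped by sample title. The mouse and rabbit IgG libraries were not used here. The submitters' processing notes name Bowtie2 2.1.0, Trimmomatic 0.30 and bcl2fastq 2.17, with build hg19. Which program called the peaks, against what control and at what threshold, is not given in the sources used. The authors' fold enrichment is a ratio over an unstated background, so it was used only within 1 list. The authors' −log10 p served only to shorten lists, and their −log10 q only to set a stricter limit or other strata, all in alternatives. Depth is unknown.

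Overlap meant at least 1 bp. Shares have 95% Wilson intervals, medians order-statistic intervals and densities exact Poisson intervals. Odds ratios are Mantel-Haenszel estimates over 10 deciles of Pol II fold enrichment with analytic intervals, and a difference was called where the interval left out 1. The odds ratios were tested on simulated data, and overlap counts were checked with bedtools 2.31.1. The code ran in Python 3.11.15 with pandas 2.3.3, numpy 2.4.6, statsmodels 0.14.6, scipy 1.17.1 and matplotlib 3.10.9. Starts are printed counting from 1. Gene and promoter tables were of another build (GRCh38), so no gene name or sequence was read by position.

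Named regions are the 8 widest domains, the 5 with all 4 other targets and the highest OGA, the 3 with most TRIM28 summits and the 3 with most domains within 100 kb; the rule's domains without SPT5 numbered 0. The rest of the chromosome 11 group and the chromosome 12 group, tied with it, were named after their values were seen. The domains, measures and alternatives were chosen with earlier results of these data known. Alternatives changed the width limit, overlap, window, flank, strata, list length and significance limit.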

Additional observations from a re-analysis of the deposited data

Results flagged for a closer look

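Chromosome X was left out of the comparisons, and the Pol II list held 12 peaks of 1500 bp or more there, a signal outside the data used above. They were 1579 to 4762 bp wide with Pol II fold enrichments of 3.23 to 14.7. All 12 overlapped SPT5, 7 TRIM28, 4 O-GlcNAc and 1 OGA. These counts have no share over the other Pol II peaks of chromosome X beside them, so they are a description only.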

How the results depend on the processing

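Of 226 alternative values, 184 held their direction and call or moved by less than their interval, 8 reversed, 4 lost their call and 30 moved; the causes were not tested. The OGA odds ratios kept their call under every alternative run, at 2.58 to 4.48 for overlap and 1.57 to 2.73 at the summit, and so did the flank odds ratios of SPT5 (2.29 to 5.97), TRIM28 (1.42 to 2.5) and OGA (1.62 to 3.35). No SPT5 odds ratio at domains could be formed, since 0 domains lacked it.

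The TRIM28 summit odds ratio was 0.954 for domains of 2000 bp or more, 0.783 against narrower peaks of at least 750 bp, 1.09 with peaks within 500 bp merged and 1.08 in a window of 100 bp, and its overlap odds ratio was 1.22 against the same narrower peaks. The O-GlcNAc overlap odds ratio lost its call, at 0.924 (0.782 to 1.09), where 50% of the shorter peak had to overlap. Without strata, the O-GlcNAc odds ratios were 1.43 for overlap, 1.07 at the summit and 0.894 in the flank. The flank value was 0.815 within 5 kb and 0.857 in strata of SPT5 fold enrichment, an alternative chosen after seeing the data, as was leaving out the 8 widest domains. The TRIM28 height difference was -0.118 with the nearest peak.

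With a limit of 1200 bp, summits per kb numbered 0.564 (SPT5), 0.768 (TRIM28) and 0.333 (O-GlcNAc), and the OGA share was 16.6%. At 2000 bp they were 0.343, 0.610 and 0.188 in that order, the OGA share was 24.3%, the O-GlcNAc share 41.4%, and 80.3% of SPT5 summits lay on the side of the Pol II summit. With −log10 q of at least 5, shares were 72.6% for TRIM28, 12.1% for OGA and 43.7% for O-GlcNAc, summits per kb were 0.486, 0.0619 and 0.226 in that order, and height differences were 2.08 for SPT5 and 0.00177 for TRIM28. With each list cut to the length of the OGA list, shares were 43.2% (SPT5), 1.93% (TRIM28) and 11.1% (O-GlcNAc), and summits per kb 0.180, 0.00905 and 0.0498 in that order. With merged peaks, summits per kb were 0.535 for SPT5 and 0.0764 for OGA, the OGA share was 16.2% and the O-GlcNAc height difference -0.379. Where the Pol II summit lay in the outer 25% of a domain's width, its side held 86.7% of SPT5 and 73.2% of O-GlcNAc summits. The shares and summits per kb in this paragraph are of domains only, with no value at narrower peaks under the same setting. They show how the domain values moved and do not compare domains with narrower peaks. No paired analysis was possible because each target had 1 library.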
